A study of Mus musculus with 4 samples.

Results

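The genes of tumour necrosis factor (TNF) signalling and of the transcription factor NF-kB were followed through kidney cells of mice given fibroblast growth factor 23 (FGF23), a hormone from bone that acts on the kidney through FGF receptors and Klotho. The group holds 34 genes of the 31053 in the deposited gene list, chosen by symbol from the pathway. They are 5 NF-kB subunits, 4 IkB inhibitors and IkB-like genes, 5 receptors and signal transducers and 7 feedback and survival targets. A further 6 are cytokines, 5 chemokines and 2 adhesion molecules. A gene was described in a cell type where at least 20 unique molecular identifiers (UMIs, 1 per captured transcript) were counted over the 4 libraries. By that rule 29 of the 34 were described in proximal tubule (PT)-like cells and 23 in distal convoluted and connecting tubule (DCT/CNT)-like cells.

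Kidneys came from male and female C57BL/6J mice that were 10 weeks old, and every library pooled male-female kidney pairs. There was 1 library at each of 0, 1, 4 and 12 h. Mice of the 1, 4 and 12 h libraries had received 10 µg of recombinant human FGF23 once, intraperitoneally, and the 0 h library is labelled with a dose of 0 µg. The file name of the 0 h library describes saline at 1 h, so the labels do not settle whether its mice were injected. The number of mice behind each library is not given in the sources used here.

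TNF binds receptors on the cell surface, which recruit TRAF adaptors and the IkB kinase (IKK) complex. In the canonical arm, IKK marks IkB proteins for destruction and frees NF-kB dimers such as Rela with the Nfkb1 product; in the non-canonical arm, the kinase encoded by Map3k14 leads to processing of the Nfkb2 product, the partner of Relb. NF-kB switches on genes of inflammation, survival genes, and its own inhibitors, among them Nfkbia and Tnfaip3, which end the signal.

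The libraries held 12245 to 13813 cell barcodes and 139675666 to 158838728 UMIs. After filtering, 8833 to 10156 cells per library remained, of which 6591, 6283, 7216 and 6352 were PT-like and 469, 448, 608 and 566 DCT/CNT-like at 0, 1, 4 and 12 h. All 7 PT markers and all 8 DCT/CNT markers were detected in the cells carrying those names in every library. The same markers named the clusters, so their detection is no check of the names. The classes are clusters named from marker genes, so they may differ from those of the study. PT-like cells mixed segments in proportions that differed between libraries: 2476 of 6591, 2052 of 6283, 2132 of 7216 and 1584 of 6352 were S3-like, S3 being the last PT segment. The DCT/CNT-like class joined 2 clusters, the one led by Slc12a3, the thiazide-sensitive sodium chloride cotransporter of the DCT, with 367, 327, 412 and 360 cells, and the one led by S100g, a calcium-binding protein, with 102, 121, 196 and 206 cells. With 1 library per time, the time and the library cannot be told apart, no test was possible, and the ratios at 1, 4 and 12 h share the 0 h library. Levels are UMI counts summed over the cells of a class and scaled to 1000000 UMIs of that class and library (CPM), and the 95% intervals, given in brackets, are exact and cover counting error only.

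Most members were at their highest in immune or endothelial cells. Over 10 cell classes of the 0 h library, the highest CPM was in neutrophil-like cells for 11 of the 34 genes, in B-like cells for 6, in T/NK-like cells for 6, in endothelial-like cells for 5 and in macrophage-like cells for 4. Il6, which encodes the cytokine interleukin 6, had 0 UMIs in all 10 classes of that library. Sod2, the mitochondrial superoxide dismutase, was the 1 member highest in PT-like cells, at 639 CPM against 123 CPM in macrophage-like cells. Il1b, which encodes the inflammatory cytokine interleukin 1 beta, stood at 5495 CPM in neutrophil-like cells, 214 CPM in macrophage-like cells and 0.844 CPM in PT-like cells. Tnf itself reached 26.9 CPM in neutrophil-like and 15.6 CPM in macrophage-like cells, while PT-like cells held 2 Tnf UMIs in all 4 libraries. Tnfrsf1a, the main TNF receptor, was found in all 10 classes, with 307 CPM in neutrophil-like, 281 CPM in endothelial-like, 49.4 CPM in TAL-like (thick ascending limb), 27.5 CPM in DCT/CNT-like, 13.5 CPM in PT-like and 3.61 CPM in B-like cells. Tnfrsf1b, the second TNF receptor, was at 125 CPM in neutrophil-like cells and had 11 UMIs over the 4 libraries in PT-like cells.

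**Figure D1:**
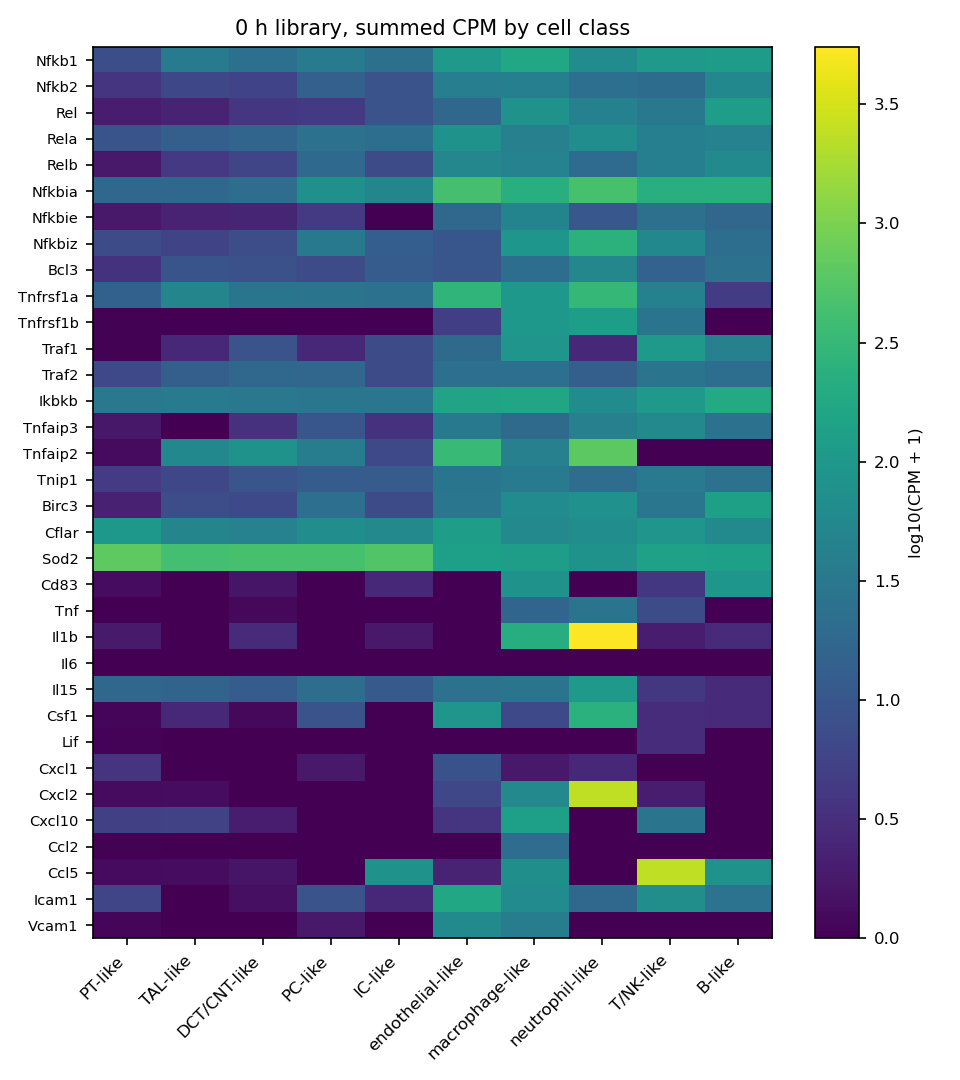
Summed CPM of the 34 genes (rows) in 10 cell classes (columns) of the 0 h library, as log10(CPM + 1) by colour. Il1b and Cxcl2 in neutrophil-like cells and Ccl5 in T/NK-like cells are the brightest fields, and Sod2 is bright in all tubule classes.

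In PT-like cells differences beyond 2-fold were few, and most numerous at 4 h, with Relb and Tnfrsf1a higher and Il1b, Cxcl1 and Cxcl2 lower. At 1 h, 0 of the 29 genes were at least 2-fold higher (1.58% of all genes tested were) and 1 was at least 2-fold lower (2.73% of all genes). At 4 h, 4 were higher (3.87% of all genes), namely Relb, Tnfrsf1a, Vcam1 and Lif, and 3 lower (4.22%), namely Il1b, Cxcl1 and Cxcl2. The counting interval of Lif included 0. At 12 h, 3 were higher (3.76%), namely Relb, Cd83 and Ccl5, and 2 lower (3.77%), again Il1b and Cxcl2. The 1 gene lower at 1 h was Tnfaip3. The median log2 ratio to 0 h was 0.09, 0.22 and 0.18 at 1, 4 and 12 h over the members, beside 0.01, 0.04 and 0.02 over all genes. At 4 h, 24 of the 29 members lay above their 0 h level, and the counting interval lay above 0 for 14 and below 0 for 4.

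**Figure D2:**
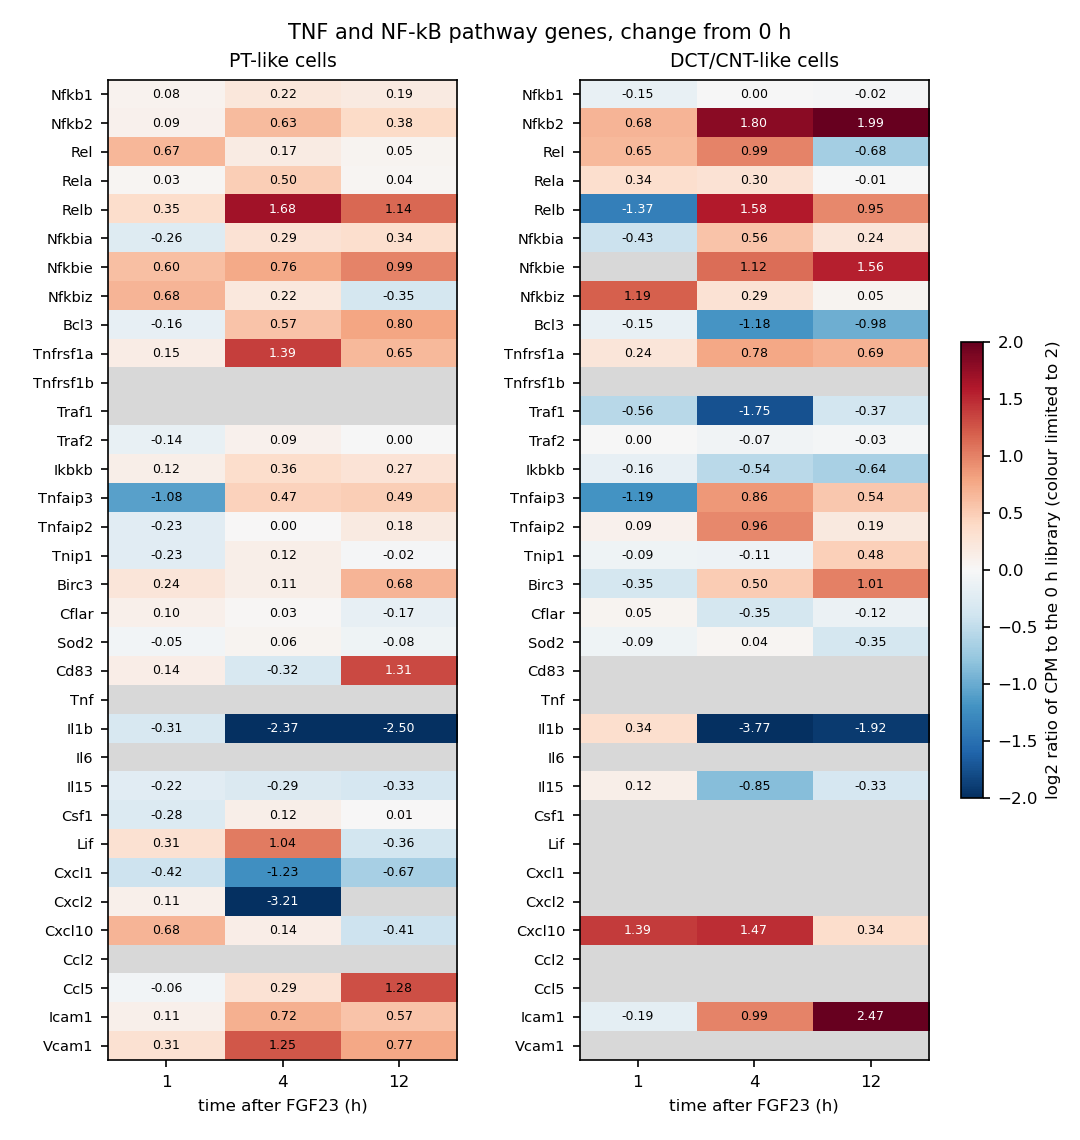
Log2 ratio of CPM to the 0 h library for each of the 34 genes (rows) at 1, 4 and 12 h (columns) in PT-like cells (left) and DCT/CNT-like cells (right). Grey fields are genes under 20 UMIs over the 4 libraries or with 0 UMIs at that time. Relb shows 1.68 and 1.58 at 4 h in the respective classes, and Nfkb2 1.99 at 12 h in DCT/CNT-like cells.

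Among the subunits in PT-like cells, Relb differed most from 0 h. Relb was counted 68, 90, 242 and 138 times at 0, 1, 4 and 12 h, or 0.776, 0.987, 2.48 and 1.71 CPM. The log2 ratios to 0 h at the later times were 0.35 [-0.12, 0.82], 1.68 [1.28, 2.09] and 1.14 [0.71, 1.58], so the 4 and 12 h libraries both lay above the 0 h library. The 242 UMIs at 4 h came from 228 cells. Nfkb2, which encodes the p100 precursor, stood at 2.82, 3.00, 4.35 and 3.67 CPM, with a log2 ratio of 0.63 [0.40, 0.86] at 4 h. Rela, the subunit that carries the main activation domain of the canonical dimer, was at 8.52, 8.72, 12.0 and 8.77 CPM and its interval lay above 0 at 4 h alone (0.50 [0.36, 0.63]). Nfkb1, the p50 precursor, went from 6.90 to 7.28, 8.06 and 7.85 CPM, at most 0.22 [0.07, 0.38] on the log2 scale. Rel, a subunit best known from lymphocytes, was highest in the 1 h library: 0.993, 1.58, 1.12 and 1.03 CPM, with a log2 ratio of 0.67 [0.28, 1.07] at 1 h.

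Across segments and sexes, the 4 h values of Relb lay close together and those of Nfkb2 further apart; neither difference was tested. Relb at 4 h had a log2 ratio of 1.71 [1.21, 2.25] in S1/S2-like and 1.44 [0.79, 2.12] in S3-like cells, and of 1.71 [1.18, 2.27] in male-called PT-like cells, with 1.48 [0.70, 2.34] in female-called ones. A cell was called male by UMIs of Y-linked genes without Xist, and female by the reverse; 2540 to 3126 PT-like cells per library were male-called and 1287 to 1794 female-called. Nfkb2 at 4 h was at 0.79 [0.50, 1.09] in S1/S2-like and 0.10 [-0.31, 0.50] in S3-like cells. By sex it was 1.02 [0.54, 1.52] in female-called and 0.30 [-0.01, 0.60] in male-called cells. No more than 19 S3-like cells of any library were female-called, so sex and segment overlap in these cells. Nfkb1 at 4 h pointed in opposite directions in the segments, with 10.8 against 8.74 CPM in S1/S2-like cells (0.31 [0.12, 0.49]) and 3.68 against 5.05 CPM in S3-like cells (-0.45 [-0.77, -0.14]).

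In DCT/CNT-like cells both Relb and its partner Nfkb2 were more than 2-fold higher at 4 h than at 0 h. Nfkb2 had 23, 42, 121 and 115 UMIs, or 4.69, 7.51, 16.3 and 18.6 CPM, and its log2 ratio was 0.68 [-0.09, 1.48], 1.80 [1.15, 2.51] and 1.99 [1.33, 2.70] at 1, 4 and 12 h. Relb had 25, 11, 113 and 61 UMIs, or 5.10, 1.97, 15.2 and 9.88 CPM. It was thus lower at 1 h (-1.37 [-2.55, -0.30]) and higher at 4 h (1.58 [0.95, 2.27]) and 12 h (0.95 [0.26, 1.69]) than at 0 h. The canonical subunits Nfkb1 (22.4, 20.2, 22.4 and 22.2 CPM) and Rela (15.5, 19.7, 19.0 and 15.4 CPM) had intervals that included 0 at all 3 times. Rel was at 2.86, 4.47, 5.67 and 1.78 CPM, from 11 to 42 UMIs.

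The 2 distal clusters gave different values. In the Slc12a3-led cluster, Relb had 20, 8, 105 and 60 UMIs, or 5.63, 2.15, 22.3 and 15.4 CPM, and Nfkb2 stood at 6.47, 7.78, 20.2 and 27.0 CPM. In the S100g-led cluster, Relb had 5, 3, 8 and 1 UMIs, and Nfkb2 0, 13, 26 and 10 UMIs. At 4 h, 8 of 21 members were at least 2-fold higher in the Slc12a3-led cluster (4.82% of all genes), and 2 of 17 in the S100g-led one (3.5%). The difference between the clusters was not tested. Read over the whole class, 2 of 23 members were at least 2-fold higher at 1 h (2.34% of all genes), Nfkbiz and Cxcl10, and 3 lower (3.24%), Relb, Nfkbie and Tnfaip3. At 4 h, 4 were higher (3.72%), namely Nfkb2, Relb, Nfkbie and Cxcl10, and 3 lower (6.2%), namely Bcl3, Traf1 and Il1b. At 12 h, 4 were higher (3.62%), namely Nfkb2, Nfkbie, Birc3 and Icam1, and 1 lower (3.69%), Il1b. Of these, Cxcl10 and Tnfaip3 at 1 h, Nfkbie at 4 h and Il1b at 12 h had counting intervals that included 0. Icam1 reached the minimum of 20 UMIs only through the 12 h library, where it was highest. Il1b reached it only through the 0 and 1 h libraries, so its lower values at 4 and 12 h are tied to that rule. Member medians were -0.09, 0.30 and 0.05, beside -0.04, -0.08 and -0.03 over all genes.

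**Figure D3:**
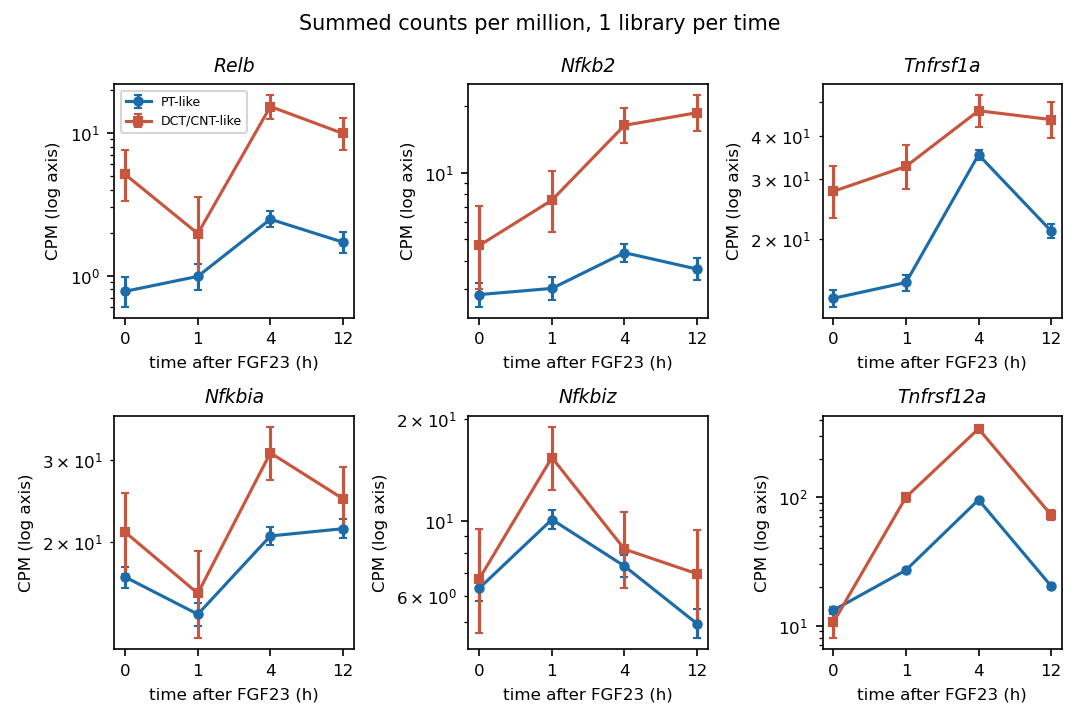
CPM (log axes) against time after FGF23 (h, evenly spaced) for 5 members and for Tnfrsf12a, a receptor of the non-canonical arm that is no member, in PT-like (circles) and DCT/CNT-like cells (squares); bars are 95% counting intervals of 1 library each. Relb in DCT/CNT-like cells dips to 1.97 CPM at 1 h before 15.2 CPM at 4 h, while Nfkbiz is highest at 1 h in each class.

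The 4 IkB-type genes took different courses. Nfkbia, the classical inhibitor that NF-kB induces, stood at 16.9, 14.0, 20.6 and 21.4 CPM in PT-like cells, lower than 0 h at 1 h (-0.26 [-0.37, -0.15]) and higher at 4 h (0.29 [0.19, 0.39]) and 12 h (0.34 [0.24, 0.44]). Nfkbie, a further cytoplasmic inhibitor, was at 0.776, 1.17, 1.31 and 1.54 CPM, above 0 h at every later time, up to 0.99 [0.55, 1.44] at 12 h. Nfkbiz, a nuclear IkB-like protein made early after stimulation, was at 6.31, 10.1, 7.33 and 4.95 CPM; its log2 ratio was 0.68 [0.52, 0.83] at 1 h and -0.35 [-0.54, -0.16] at 12 h. Bcl3, a nuclear IkB-like coactivator, was at 2.54, 2.28, 3.79 and 4.42 CPM, with 0.57 [0.33, 0.82] at 4 h and 0.80 [0.55, 1.04] at 12 h.

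In DCT/CNT-like cells, Nfkbia took the same directions as in PT-like cells at 1 and 4 h, and Nfkbiz at 1 h. Bcl3 took the opposite direction at 4 h. Nfkbiz had 33, 86, 61 and 43 UMIs, or 6.73, 15.4, 8.23 and 6.96 CPM, and was 1.19 [0.60, 1.82] above 0 h on the log2 scale at 1 h. Its interval at 4 h included 0. Nfkbia was at 21.0, 15.6, 31.0 and 24.8 CPM, with -0.43 [-0.86, -0.01] at 1 h and 0.56 [0.22, 0.91] at 4 h. Under a 25% limit on mitochondrial UMIs the 1 h value was 0.36, from 22 and 26 UMIs at 0 and 1 h. Nfkbie had 7, 0, 23 and 26 UMIs. Against a floor of 3 UMIs it was at least 2.66-fold lower at 1 h, and at 12 h its log2 ratio was 1.56 [0.32, 3.01]. Bcl3 had 36, 37, 24 and 23 UMIs, or 7.34, 6.62, 3.24 and 3.72 CPM, which gave -1.18 [-1.99, -0.40] at 4 h and -0.98 [-1.80, -0.19] at 12 h.

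Nfkbia took different values in PT-like cells of the 2 sexes. Female-called cells had 10.6, 11.8, 26.6 and 22.5 CPM at 0, 1, 4 and 12 h, a log2 ratio of 1.33 [1.09, 1.58] at 4 h and 1.09 [0.84, 1.36] at 12 h. Male-called cells had 19.8, 15.7, 18.6 and 22.1 CPM, a log2 ratio of -0.09 [-0.21, 0.04] at 4 h. The sexes were furthest apart at 0 h, where the female-called level was the lower. Within S1/S2-like cells, where both sexes were well represented, the 4 h values were 1.32 [1.08, 1.57] in female-called and -0.35 [-0.54, -0.15] in male-called cells. Over the list, 9 of 25 members were at least 2-fold higher at 4 h in female-called PT-like cells (4.57% of all genes) with a median of 0.81 (0.08 over all genes), and 4 of 28 in male-called cells (3.44%) with a median of 0.07 (0.02 over all genes). The difference between the sexes was not tested, and each sex within a library shares that library.

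**Figure D4:**
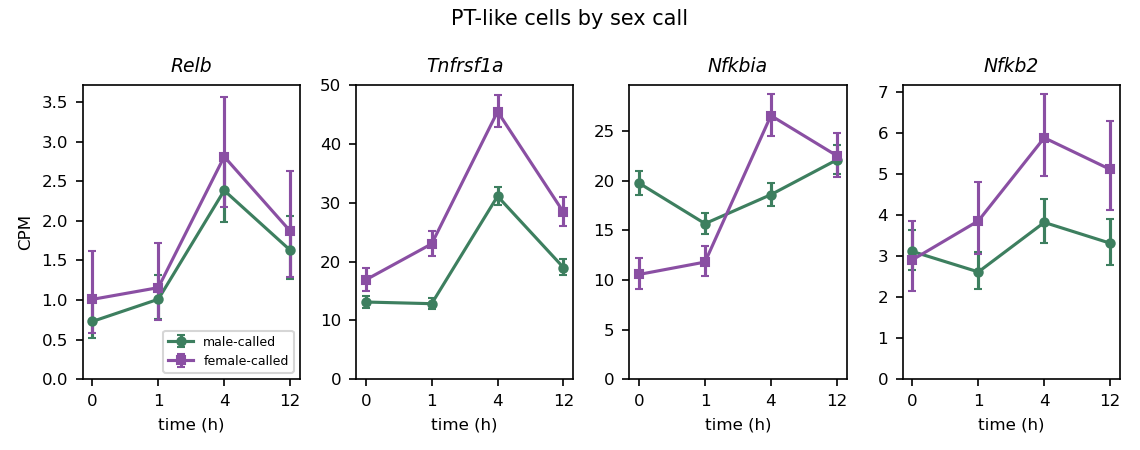
CPM against time (h, evenly spaced) for 4 members in male-called (circles) and female-called (squares) PT-like cells, with 95% counting intervals and axes from 0. Relb and Tnfrsf1a peak at 4 h in each sex, while Nfkbia is at 10.6 CPM in female-called and 19.8 CPM in male-called cells at 0 h and crosses over at 4 h.

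The promoters of these genes are shown because NF-kB is known to act on several of them through the kappaB site. RefSeq windows (build GRCm38.p6) were found for 25 of the 34 members, and the 250 bases before each start were searched on both strands for the kappaB consensus. At least 1 match lay before 12 of the 25 members (48.0%), and before 1204 of all 27025 genes with a window (4.46%). The list holds genes chosen as NF-kB targets, so its share is no result of these data. Windows of Icam1, Tnf, Birc3, Traf1, Tnfaip2 and Bcl3 were among those without a match. A match is a description of the letters, not of binding in these cells. The windows of a non-canonical subunit, of the classical inhibitor and of 2 chemokines are given 5′ to 3′ towards the gene's start, with matches in capitals, overlapping matches on both strands joined. The Nfkb2 window, first of 3 RefSeq starts, lies at chr19:46304487-46304736 (plus strand), that of Nfkbia at chr12:55492648-55492897 (minus strand), that of Cxcl1 at chr5:90890995-90891244 (plus strand) and that of Cxcl10 at chr5:92348890-92349139 (minus strand).
Nfkb2: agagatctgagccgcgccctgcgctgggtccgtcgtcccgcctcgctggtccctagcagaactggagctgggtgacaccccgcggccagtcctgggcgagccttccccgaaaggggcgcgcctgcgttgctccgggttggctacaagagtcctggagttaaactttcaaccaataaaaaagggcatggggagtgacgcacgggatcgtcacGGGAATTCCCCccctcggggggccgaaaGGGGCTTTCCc
Nfkbia: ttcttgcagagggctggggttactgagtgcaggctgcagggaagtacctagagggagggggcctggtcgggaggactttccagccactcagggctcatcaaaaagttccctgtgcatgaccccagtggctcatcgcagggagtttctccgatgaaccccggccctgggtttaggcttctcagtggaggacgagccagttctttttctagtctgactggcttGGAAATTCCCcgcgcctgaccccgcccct
Cxcl1: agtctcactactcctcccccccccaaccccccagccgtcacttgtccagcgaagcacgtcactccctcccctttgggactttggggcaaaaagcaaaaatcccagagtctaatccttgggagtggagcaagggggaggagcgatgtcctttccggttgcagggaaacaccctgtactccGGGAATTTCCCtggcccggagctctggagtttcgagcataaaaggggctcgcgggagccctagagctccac
Cxcl10: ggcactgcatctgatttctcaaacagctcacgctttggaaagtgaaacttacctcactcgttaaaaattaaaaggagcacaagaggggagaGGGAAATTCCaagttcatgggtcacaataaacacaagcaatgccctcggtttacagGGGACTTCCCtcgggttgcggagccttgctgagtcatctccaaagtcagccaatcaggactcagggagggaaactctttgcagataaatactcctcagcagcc
In the Nfkb2 window 1 base lies between the last match and the RefSeq start, and in the Nfkbia window 19 bases do. The Tnfrsf1a window at chr6:125349473-125349722 (plus strand) held no match. The Tnfrsf1a and Nfkb2 windows lie inside the annotated genes, at chr6:125349362-125362484 and chr19:46304320-46312385. The bases before those annotated starts were not searched.

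Among receptors and signal transducers, Tnfrsf1a stood out in PT-like cells. It had 1179, 1364, 3434 and 1702 UMIs, or 13.5, 15.0, 35.2 and 21.1 CPM, and a log2 ratio of 0.15 [0.04, 0.27], 1.39 [1.29, 1.48] and 0.65 [0.54, 0.76] at 1, 4 and 12 h. At 1 h the Tnfrsf1a value was -0.031 in male-called cells. The 4 h library was the highest of the 4 in S1/S2-like cells (16.0, 18.0, 41.2 and 23.2 CPM), in S3-like cells (10.9, 10.8, 25.5 and 17.2 CPM), in male-called cells (1.25 [1.12, 1.38]) and in female-called cells (1.43 [1.24, 1.62]). Tnfrsf1a in DCT/CNT-like cells was at 27.5, 32.5, 47.2 and 44.5 CPM, or 0.78 [0.49, 1.08] at 4 h, and in the Slc12a3-led cluster at 27.6, 37.6, 57.0 and 51.5 CPM. The 12 h value in DCT/CNT-like cells, 0.69 [0.39, 1.00], lay close to that at 4 h. TAL-like cells held Tnfrsf1a at 49.4, 36.4, 58.2 and 37.9 CPM, with a 4 h interval that included 0 (0.24 [-0.07, 0.55]). The gene lies at chr6:125349362-125362484 on the plus strand (GRCm38), and no annotated gene overlaps it.

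The remaining transducers lay closer to 0 h in PT-like cells. Ikbkb, the catalytic IKK subunit of the canonical arm, was at 30.7, 33.3, 39.2 and 37.0 CPM (0.36 [0.28, 0.43] at 4 h), while in DCT/CNT-like cells it was lower at 4 h (-0.54 [-0.87, -0.21]). Traf2, an adaptor of the TNF receptor complex, stayed between 5.24 and 6.16 CPM. Traf1, an adaptor that NF-kB induces in many cells, had 12 UMIs in PT-like cells and was not described there. Traf1 in DCT/CNT-like cells had 40, 31, 18 and 39 UMIs, or 8.16, 5.54, 2.43 and 6.31 CPM, lowest at 4 h (-1.75 [-2.64, -0.91]).

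Feedback and survival targets of NF-kB gave mixed values. Tnfaip3, which encodes the ubiquitin-editing inhibitor A20, had 65, 32, 100 and 84 UMIs in PT-like cells, or 0.742, 0.351, 1.02 and 1.04 CPM. It was lower at 1 h (-1.08 [-1.74, -0.45]) and slightly higher at 4 h (0.47 [0.00, 0.94]) and 12 h (0.49 [0.01, 0.98]). Tnfaip3 in DCT/CNT-like cells rested on 12, 6, 33 and 22 UMIs. Cd83, an immunoglobulin-like surface protein known from dendritic and B cells, had 28, 32, 25 and 64 UMIs in PT-like cells, 1.31 [0.65, 2.01] above 0 h at 12 h. The 5 markers of B cells, which carry Cd83, summed to 0.650, 0.888, 0.287 and 1.40 CPM in the same PT-like cells, highest at 12 h too, with Ms4a1 at 0 in the 4 h library. Their part in the Cd83 value was not tested.

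Birc3, an inhibitor of apoptosis that acts in the TNF receptor complex, was at 5.71, 4.47, 8.10 and 11.5 CPM in DCT/CNT-like cells, with 1.01 [0.36, 1.70] at 12 h. In the PT-like class it was at 1.18, 1.39, 1.27 and 1.89 CPM (0.68 [0.31, 1.06] at 12 h). Tnfaip2, a target gene of TNF, was at 79.8, 84.9, 155 and 91.0 CPM in DCT/CNT-like cells; the 4 h value (0.96 [0.79, 1.13]) lay just under 2-fold and was picked out after its values were seen. In the Slc12a3-led cluster it was at 96.8, 109, 216 and 118 CPM. Sod2 (639, 615, 664 and 604 CPM), Cflar, an inhibitor of caspase 8 activation (99.3, 106, 101 and 88.4 CPM), and Tnip1, a partner of A20 (3.48, 2.97, 3.78 and 3.42 CPM), had log2 ratios between -0.23 and 0.12 in PT-like cells. Tnfaip2 had 23 to 29 UMIs per library there.

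Transcripts of Il1b and Cxcl2 in PT-like cells were few, and they were lower at 4 and 12 h together with 5 of 6 neutrophil markers. Il1b had 74, 62, 16 and 12 UMIs in PT-like cells, a log2 ratio of -2.37 [-3.24, -1.57] at 4 h and -2.50 [-3.52, -1.61] at 12 h. Cxcl2, a chemokine for neutrophils, had 25, 28, 3 and 0 UMIs. Its log2 ratio was -3.21 [-5.59, -1.50] at 4 h, and at 12 h it was at least 7.66-fold lower against a floor of 3 UMIs. The neutrophil markers S100a8 (423, 262, 82 and 42 UMIs), S100a9 (539, 347, 108 and 47 UMIs) and Retnlg (96, 57, 7 and 6 UMIs) were also lower at 4 and 12 h than at 0 and 1 h in the same cells. Per 100 UMIs of S100a8 and S100a9 together, PT-like cells held 7.69, 10.2, 8.42 and 13.5 Il1b UMIs, and neutrophil-like cells 3.34, 4.29, 7.40 and 6.39. For Cxcl2 the PT-like values were 2.60, 4.60, 1.58 and 0 UMIs, and the neutrophil-like ones 1.45, 1.69, 0.849 and 0.688. The whole list of 6 neutrophil markers, all detected, summed to 122, 81.9, 305 and 145 CPM, of which G0s2 alone made 109, 74.2, 303 and 144 CPM, and the other 5 made 12.7, 7.73, 2.25 and 1.40 CPM. Neutrophil-like cells numbered 350, 324, 79 and 57, and within them Il1b stood at 5495, 7056, 9619 and 7513 CPM. In DCT/CNT-like cells Il1b had 9, 13, 1 and 3 UMIs, while the same 5 markers summed to 51.2, 41.3, 2.16 and 1.46 CPM there. The part of neutrophil RNA in the Il1b and Cxcl2 values was not tested.

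Cxcl1, a chemokine for neutrophils that tubule cells also make, took another course than Cxcl2. It had 240, 187, 114 and 139 UMIs in PT-like cells, or 2.74, 2.05, 1.17 and 1.72 CPM, while neutrophil-like cells held 1 Cxcl1 UMI in the 0 h library and 0 in the later ones. Its level was higher in S3-like cells, at 4.68, 3.85, 1.35 and 3.81 CPM, with a log2 ratio of -1.79 [-2.26, -1.34] at 4 h and -0.30 [-0.65, 0.05] at 12 h. S1/S2-like cells were at 0.817, 0.723, 1.05 and 0.641 CPM, and the 4 h interval included 0 (0.36 [-0.25, 1.00]). Among male-called S3-like cells the 4 h library was again the lowest, at 4.81, 3.98, 1.62 and 4.41 CPM. DCT/CNT-like cells held 0 Cxcl1 UMIs in all 4 libraries.

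**Figure D5:**
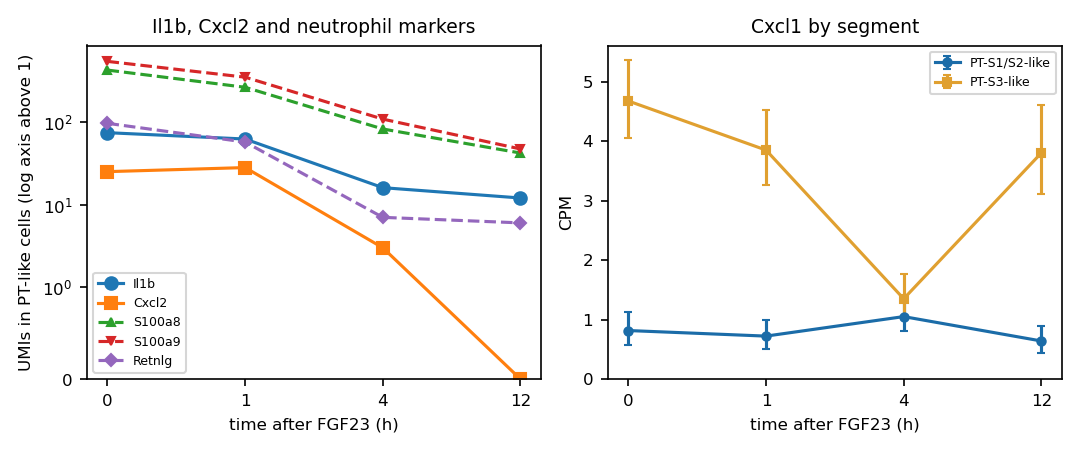
Left, UMIs of Il1b, Cxcl2 and 3 neutrophil markers in PT-like cells against time (h, evenly spaced; log axis above 1 UMI). Right, CPM of Cxcl1 in S1/S2-like and S3-like cells with 95% counting intervals. Il1b, Cxcl2, S100a8, S100a9 and Retnlg are all lower at 4 and 12 h than at 0 h, and Cxcl1 is low in S3-like cells in the 4 h library (1.35 CPM) and back at 3.81 CPM at 12 h.

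Cxcl10, an interferon-induced chemokine for T cells, was carried by few PT-like cells. Its 360, 600, 442 and 249 UMIs came from 46, 72, 49 and 33 cells, and a single cell held up to 29.7% of a library's UMIs. A cluster led by interferon-induced genes, among them Iigp1, Igtp and Gbp2, held 102, 134, 131 and 106 PT-like cells and 317, 462, 403 and 234 of these UMIs; Cxcl10 is among its leading genes, although it was kept out of the clustering. Without that cluster Cxcl10 was at 0.499, 1.55, 0.407 and 0.190 CPM, 1.63 [1.13, 2.16] above 0 h at 1 h and -1.40 [-2.35, -0.52] at 12 h, from 43, 138, 39 and 15 UMIs. The sexes took opposite courses in Cxcl10, which was looked at after its values were seen: female-called PT-like cells had 14, 215, 215 and 64 UMIs, and male-called ones 306, 266, 75 and 114 UMIs, where 5 to 37 cells made up each value. The difference between these courses was not tested.

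Most other cytokines and chemokines were scarce in PT-like cells. Il15, a growth factor of T and NK cells, was at 16.9, 14.5, 13.9 and 13.4 CPM, -0.33 [-0.45, -0.22] at 12 h. Csf1, a growth factor of macrophages, had 12 to 17 UMIs per library, and Lif, a cytokine of the interleukin 6 family, 5 to 16. Il6 was at 0 UMIs in all libraries, and Tnf and Ccl2 stood at 2 and 8 UMIs in total. Ccl5, a chemokine of T and NK cells, had 25, 25, 34 and 56 UMIs, 1.28 [0.58, 2.03] above 0 h at 12 h, while the 8 T/NK markers summed to 0.742, 0.504, 0.471 and 1.13 CPM in the same cells, also highest at 12 h, with Klrb1c at 0 in all but the 4 h library. Their part in the Ccl5 value was not tested. At 4 h, 1 cell held 41.2% of the Ccl5 UMIs.

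Both adhesion molecules were higher in PT-like cells at 4 h. Icam1, which binds leukocyte integrins, had 451, 506, 826 and 614 UMIs, or 5.15, 5.55, 8.46 and 7.62 CPM. It lay above 0 h at 4 h (0.72 [0.55, 0.89]) and at 12 h (0.57 [0.39, 0.74]). At 4 h each sex call showed it: 0.54 [0.32, 0.76] for male-called cells, 0.86 [0.52, 1.21] for female-called ones. Vcam1, which mediates adhesion of monocytes and lymphocytes, rested on 14, 18, 37 and 22 UMIs in 10 to 19 cells, with 1.25 [0.33, 2.25] at 4 h. In male-called cells the Vcam1 value at 4 h was -0.59, from 3 and 2 UMIs at 0 and 4 h. Icam1 in DCT/CNT-like cells had 2, 2, 6 and 14 UMIs. Endothelial-like cells, where both are best known, held Icam1 at 175, 166, 144 and 178 CPM, and the intervals of the log2 ratio to 0 h included 0 at all 3 times (-0.08 [-0.43, 0.27], -0.29 [-0.61, 0.04] and 0.02 [-0.28, 0.32]).

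The 45 other pathway genes add receptors of the non-canonical arm, of which Tnfrsf12a is described here. Ltbr, Cd40 and Tnfrsf11a, further receptors of that arm, are among the 45 and their values are not given. Of these, 37 were described in PT-like cells: 1 was at least 2-fold higher (1.58% of all genes) and 0 lower (2.73%) at 1 h, 2 higher (3.87%) and 1 lower (4.22%) at 4 h, and 2 higher (3.76%) and 2 lower (3.77%) at 12 h. Such small counts lie near the share over all genes. Tnfrsf12a, the receptor of the TNF-like cytokine TWEAK, stood in PT-like cells at 13.2, 27.0, 95.6 and 20.3 CPM. The DCT/CNT-like levels were 10.6, 100, 342 and 72.8 CPM, where its log2 ratio was 3.24 [2.83, 3.68], 5.01 [4.62, 5.44] and 2.78 [2.36, 3.22]. Map3k14, the kinase of the non-canonical arm, was at 3.26, 11.4, 13.6 and 4.69 CPM in DCT/CNT-like cells, from 16, 64, 101 and 29 UMIs, with 1.81 [1.00, 2.70] at 1 h and 2.06 [1.29, 2.92] at 4 h. Traf3, which holds Map3k14 in check, had a log2 ratio of -0.80 [-1.52, -0.09] at 4 h in DCT/CNT-like cells. The genes named from these 45 were singled out after their values were seen. Tnfsf12, the gene of TWEAK, was at 14.7, 17.9, 23.0 and 31.0 CPM in PT-like cells, its interval above 0 at each later time, and had 9 UMIs in all in DCT/CNT-like cells, where it was not described.

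Of the 45, 31 were described in DCT/CNT-like cells, with 3 at least 2-fold higher (2.34% of all genes) and 0 lower (3.24%) at 1 h, 3 higher (3.72%) and 1 lower (6.2%) at 4 h, and 2 higher (3.62%) and 1 lower (3.69%) at 12 h. Cxcl16, a membrane-bound chemokine, was at 2.86, 3.04, 9.31 and 11.2 CPM in DCT/CNT-like cells and at 31.4, 37.7, 46.0 and 59.7 CPM in PT-like cells. Irf1, a transcription factor induced by interferon and TNF, was at 1.99, 2.83, 4.13 and 3.29 CPM in PT-like cells (1.06 [0.80, 1.32] at 4 h). Irf1 in DCT/CNT-like cells had 8, 43, 9 and 10 UMIs, high in the 1 h library alone. Gadd45b, a stress gene that NF-kB can induce, had 35, 23, 14 and 11 UMIs in DCT/CNT-like cells.

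Genes that can respond to handling of tissue, and may respond to FGF23 as well, differed between libraries too. Fos in PT-like cells was at 62.3, 78.5, 27.3 and 9.74 CPM, and in DCT/CNT-like cells at 73.8, 59.0, 21.3 and 7.61 CPM. Jun was lower in each later library: 364, 333, 280 and 171 CPM in PT-like and 168, 122, 68.6 and 35.0 CPM in DCT/CNT-like cells. Egr1 in PT-like cells was at 21.9, 203, 18.7 and 5.09 CPM. Of the heat shock genes in PT-like cells, Hspa1a was at 16.5, 27.2, 19.5 and 10.1 CPM and Hspa1b at 10.5, 17.3, 17.1 and 8.50 CPM. Hsp90aa1 was at 425, 454, 614 and 369 CPM and Dnajb1 at 23.6, 27.5, 29.1 and 22.0 CPM in PT-like cells, both highest at 4 h, as Relb, Nfkb2 and Rela were. In DCT/CNT-like cells Hspa1a was at 71.2, 101, 61.9 and 39.7 CPM and Hspa1b at 57.9, 109, 71.8 and 46.1 CPM. Dnajb1 was at 21.2, 42.2, 19.8 and 17.6 CPM there, and Hsp90aa1 at 507, 554, 581 and 473 CPM. Of the heat shock genes, Hsp90aa1 alone was highest at 4 h in DCT/CNT-like cells, as Relb was, and the others at 1 h. Fos and Jun were highest at 0 h there. Junb, an early response gene, was at 55.5, 106, 93.2 and 21.4 CPM in DCT/CNT-like cells, above 0 h at 1 and 4 h. In PT-like cells Nfkbiz and Rel shared with Egr1 the highest level at 1 h, and Nfkbiz also shared the lowest at 12 h. In DCT/CNT-like cells, where Nfkbiz was highest at 1 h too, Egr1 was at 32.6, 450, 130 and 14.7 CPM. The part of tissue handling in these values was not tested.

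In the other tubule classes, several of the largest ratios came from 1 cell. In TAL-like cells 3 of 20 members were at least 2-fold higher at 4 h (2.54% of all genes) and 0 lower (2.97%). Those were Relb (10, 9, 23 and 15 UMIs), Cxcl10 (14, 39, 82 and 14 UMIs) and Ccl5 (1, 1, 83 and 12 UMIs). The counting interval of Relb at 4 h included 0, and Ccl5 reached the minimum of 20 UMIs only through the 4 h library. All 83 Ccl5 UMIs at 4 h lay in 1 cell, and 63.4% of the Cxcl10 UMIs at 4 h in 1 cell. In intercalated (IC)-like cells 0 of 19 were higher at 4 h (5.37%) and 4 lower (3.83%). There, Ccl5 had 100, 0, 47 and 1 UMIs, and all 100 at 0 h were in 1 cell. Bcl3 was at 11.3, 5.99, 8.36 and 3.49 CPM in IC-like cells, from 7 to 25 UMIs.

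Principal cell (PC)-like cells shared the 4 h difference in Nfkb2. Of 23 members, 5 were at least 2-fold higher at 4 h (4.64%) and 0 lower (2.72%). Nfkb2 had 16, 10, 76 and 18 UMIs, or 13.0, 11.2, 31.4 and 12.9 CPM. Csf1 had 10, 10, 67 and 13 UMIs, or 8.15, 11.2, 27.7 and 9.29 CPM, and the 67 came from 33 cells. The 6 neutrophil markers summed to 17.1, 13.4, 72.3 and 10.7 CPM in PC-like cells, also highest at 4 h. Csf3r was at 0 at 0 and 12 h, Cxcr2 and Retnlg at 1 and 12 h, and S100a8 at 12 h. That sum includes G0s2, which alone made 303 of 305 CPM in PT-like cells at 4 h, and it was not split here. Relb was at 17.9, 15.6, 23.1 and 6.43 CPM, and Birc3 at 22.0, 8.94, 32.6 and 15.0 CPM. Icam1 had 10, 7, 46 and 2 UMIs, with 50% of the 46 in 1 cell. The 9 endothelial markers summed to 162, 101, 145 and 20.7 CPM there, lowest at 12 h as Icam1 was. At 4 h their sum lay below that at 0 h, while Icam1 lay above its 0 h level. The part of either marker list in the Csf1 and Icam1 values was not tested. PC-like cells numbered 92, 82, 145 and 116.

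In endothelial-like cells few members lay beyond 2-fold at 4 h. Of 24 members described, 1 was at least 2-fold higher at 4 h (4.62%) and 3 lower (4.37%). Tnfaip3 was at 31.4, 23.3, 6.78 and 19.9 CPM, from 24, 20, 9 and 34 UMIs, and Birc3 at 28.8, 28.0, 11.3 and 18.8 CPM. Traf1 was at 18.3, 10.5, 12.8 and 7.03 CPM, from 9 to 17 UMIs. Cxcl10 had 2, 46, 10 and 99 UMIs, with 84.8% of the 46 and 69.7% of the 99 in 1 cell each. Ccl2, a chemokine for monocytes, had 46 UMIs at 12 h, all in 1 cell, and 0 in the other libraries.

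Macrophage-like cells numbered 191, 104, 60 and 146, and came from 2 clusters whose mix shifted. Before doublet calls were removed, the C1qa-led cluster held 158, 68, 27 and 86 cells and the Lyz2-led cluster 63, 59, 51 and 86, so the C1qa-led cells were the fewer at 4 h alone. Of 30 members, 0 were at least 2-fold higher at 4 h (6.08%) and 8 lower (12.3%). Cd83 was at 81.3, 91.9, 18.3 and 119 CPM, from 99, 72, 9 and 121 UMIs, lowest in the 4 h library. Ccl5 was at 72.3, 45.9, 108 and 371 CPM, and at 12 h its 377 UMIs were spread over 21 cells. Vcam1 was at 37.8, 24.2, 14.2 and 52.1 CPM. Cxcl10 had 156, 178, 12 and 27 UMIs, with 83.3% of the 156 in 1 cell. The part of the cluster mix in the 4 h values was not tested.

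In neutrophil-like cells 0 of 23 members were at least 2-fold higher at 4 h (10.5%) and 2 lower (12.0%). Cxcl2 was at 2384, 2780, 1104 and 809 CPM, high in the 0 and 1 h libraries, and Csf1 at 242, 169, 122 and 106 CPM. Il15 was at 101, 81.4, 108 and 31.9 CPM and Sod2 at 80.6, 33.9, 94.8 and 10.6 CPM, the last from 1 UMI. In T/NK-like cells 3 of 25 were higher (4.84%) and 1 lower (8.76%). Nfkbiz was at 54.7, 28.3, 30.7 and 17.5 CPM there, highest at 0 h, Traf2 at 26.3, 29.5, 9.44 and 19.5 CPM, and Tnf at 6.08, 20.4, 10.6 and 11.0 CPM from 6, 18, 9 and 17 UMIs. Cxcl10 had 26, 2, 54 and 9 UMIs in T/NK-like cells, with 96.3% of the 54 in 1 cell. Ccl5, a defining product of these cells, was at 2408, 4521, 3994 and 3384 CPM.

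In B-like cells 0 of 20 members were higher at 4 h (8.48%) and 4 lower (11.3%). Relb was at 61.4, 46.3, 33.6 and 30.6 CPM and Nfkbie at 16.2, 29.8, 23.5 and 38.3 CPM. Traf1 had 23, 12, 4 and 17 UMIs, and Ccl5 45, 1, 1 and 21 UMIs. The 8 T/NK markers summed to 513, 155, 181 and 386 CPM in B-like cells, high at 0 and 12 h as Ccl5 was, with Gzma and Ncr1 at 0 in all libraries. A B-like cluster of 14, 3, 3 and 15 cells had Cd3d and Trbc1 among its leading genes. Their part in the Ccl5 and Traf1 values was not tested. B-like cells numbered 192, 179, 96 and 279, so Relb rested on 10 to 34 UMIs per library.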

How the data were processed

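Kidney cells of 4 libraries, 1 each at 0, 1, 4 and 12 h, were measured with the 10x Genomics 3′ V3 kit, per the labels' protocols. The values deposited by the authors are raw UMI counts per gene and barcode, not normalized, in files of software version 3.1.0 per the file headers. The submitters' processing notes name Cell Ranger 3.1.0, STAR, Seurat and mm10. Whether counting used the strand is not given in the sources used here. Annotated genes (GENCODE vM21, GRCm38, which held 99.9% of the 31053 gene IDs) overlap 11 members on the other strand, among them Nfkb2, and 1 on the same strand.

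Barcodes with fewer than 300 genes or over 50% mitochondrial UMIs were left out. Library pairs shared 36 to 57 barcodes. Doublets were called from simulated doublets among 30 neighbours at an assumed 0.8% per 1000 cells (6.80% to 8.67% of cells) and removed. Cells were clustered with leidenalg 0.10.2 (scanpy 1.11.5, Python 3.11.15, resolution 1.5, 20 neighbours, 30 components, 2017 genes), with members and other pathway genes kept out of the genes used. Clusters were named from markers with at least 3 on, and others stayed unnamed. A name also needed a log2 score gap of 0.5 to the second class and at most 50% doublet calls. Outside PT, it needed a marker of the class among the leading genes. Clusters led by Sox17 and by Cldn5 scored as endothelial but lacked such a marker, so the endothelial-like class leaves them out. Counts were summed by class and library. Poisson intervals on CPM and binomial intervals on ratios are exact, at 95% (scipy 1.17.1), and their functions were tested on simulated data. No test across samples was possible with 1 library per time, and intervals do not cover differences between mice or libraries.

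The members and lists were chosen with earlier results of these data known. Values at all 4 times were given for subunits, IkB genes and receptors, and for members with at least 50 UMIs and a 2-fold difference in PT-like or DCT/CNT-like cells whose interval excluded 0; in other classes for up to 4 members of that UMI minimum by size. Icam1, Cxcl10, Tnfaip2, Ikbkb and the other members given beyond that rule were added after their values were seen. Floors for a count of 0 used 3 UMIs. Alternatives were another mitochondrial limit, doublets kept, other scalings, equal weight per cell, sexes, segments, resolution 1.0, other minimums and another fold. Splits by sex within segments or within the Slc12a3-led cluster, the single distal clusters and the PT-like class without its Iigp1-led cluster were added after seeing the data.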

Additional observations from a re-analysis of the deposited data

Results flagged for a closer look

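Some members moved in opposite directions in 2 groups of cells or at 2 times, with both counting intervals away from 0. Where a difference is given, it is the first log2 ratio to 0 h minus the second, and none was tested. The cases named are not a full list. Cxcl1 at 4 h differed by 2.70 between female-called (1.19) and male-called (-1.51) PT-like cells, where the female-called value rests on 9 UMIs at 0 h, 66.7% of them in 1 cell. Nfkb1 at 4 h differed by 0.76 between S1/S2-like and S3-like cells. Bcl3 was higher in PT-like and lower in DCT/CNT-like cells, by a difference of 1.76 at 4 h and 1.78 at 12 h. So were Ikbkb at 4 and 12 h and Nfkbie at 1 h. Nfkbia at 4 h was opposed between female-called and male-called S1/S2-like cells.

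Further cases set times against each other and share the 0 h library. Nfkbia in PT-like cells was lower at 1 h than at 0 h and higher later, with differences of -0.56 for 1 h minus 4 h and -0.61 for 1 h minus 12 h, and in DCT/CNT-like cells of -0.997 for 1 h minus 4 h. Tnfaip3 in PT-like cells gave -1.55 for 1 h minus 4 h and -1.57 for 1 h minus 12 h. Relb in DCT/CNT-like cells gave -2.95 for 1 h minus 4 h and -2.33 for 1 h minus 12 h, from 11 UMIs at 1 h. Nfkbiz in PT-like cells was higher earlier and lower at 12 h, with 1.03 for 1 h minus 12 h and 0.57 for 4 h minus 12 h. Sod2, Cflar and Cxcl10 in PT-like cells and Nfkbie in DCT/CNT-like cells were also opposed between times.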

How the results depend on the processing

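With 1 library per time, no library could be left out and no spread between mice was measured, and depth limited values under about 20 UMIs. No paired analysis was possible because each time has 1 library. Of the list results, 117 of 150 values under the alternatives in PT-like cells and 99 of 132 in DCT/CNT-like cells stayed within 1.5 times the reported count or within the median's interval; the causes of the other values were not tested. None moved under scaling by non-mitochondrial UMIs, resolution 1.0 or S1/S2-like cells alone.

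In PT-like cells the counts at least 2-fold higher were 0, 4 and 3 at 1, 4 and 12 h, and those lower 1, 3 and 2. Female-called cells alone gave 3, 9 and 6 higher, 1 lower at 4 h and 1 at 12 h, and a 4 h median of 0.81 instead of 0.22. Female-called S1/S2-like cells gave 4, 8 and 7 higher, 1 and 1 lower at 4 and 12 h and the same 4 h median of 0.81. Male-called cells gave 2, 5 and 4 lower. Male-called S1/S2-like cells gave 2 higher at 4 h and 1 at 12 h, and male-called S3-like cells 2 higher at 1 h and a 4 h median of 0.040. S3-like cells alone gave 2 higher and 0 lower at 1 h. Without a UMI minimum there were 2 higher and 2 lower at 1 h, 5 lower at 4 h and 4 at 12 h; at least 100 UMIs left 2 higher at 4 h and 1 lower at 12 h. A 1.5-fold limit gave 4, 7 and 8 higher. Keeping doublets gave 2 higher at 4 h, the 25% mitochondrial limit 5 higher at 12 h, and leaving out the Iigp1-led cluster 1 higher at 1 h.

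In DCT/CNT-like cells the reported counts were 2, 4 and 4 higher and 3, 3 and 1 lower. Female-called cells gave 1 higher at 1 h, 1 lower at 4 h and 2 at 12 h, and male-called cells 0 lower at 1 and 12 h. Without a UMI minimum there were 4 and 8 higher at 1 and 4 h and 5, 6 and 2 lower. At least 100 UMIs left 1, 2 and 2 higher, 1 lower at 1 h and 0 at 12 h. A 1.5-fold limit gave 4 and 9 higher at 1 and 4 h and 4 lower at 12 h. The 25% mitochondrial limit gave 3 lower at 12 h, equal weight per cell 1 higher at 1 h and 2 lower at 12 h, and median-ratio scaling 7 higher at 4 h. The Slc12a3-led cluster gave 8 higher at 4 h and 0 lower at 12 h, and its female-called cells 9 higher and 1 lower at 4 h and 0 lower at 12 h. Its male-called cells gave 0 lower at 1 and 12 h. The S100g-led cluster gave 0 lower at 1 h, 2 and 1 higher at 4 and 12 h, and 3 lower at 12 h.

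Single genes reversed mainly in splits by sex or segment. In female-called PT-like cells the log2 ratio was 0.16 for Nfkbia at 1 h, 1.19 for Cxcl1 at 4 h and -0.064 for Tnfaip3 at 12 h. Among female-called S1/S2-like cells it was 0.15 for Nfkbia at 1 h, -0.067 for Tnfaip3 at 12 h, and 1.28, 3.36 and 1.25 for Cxcl1, from 2 UMIs at 0 h. Male-called PT-like cells gave -0.031 for Tnfrsf1a at 1 h, and -0.087 for Nfkbia and -0.59 for Vcam1 at 4 h. Male-called S1/S2-like cells gave -0.062 for Tnfrsf1a at 1 h, -0.35 for Nfkbia and -1.39 for Vcam1 at 4 h, and -0.058 for Nfkb2 and -0.10 for Nfkbia at 12 h. S3-like cells gave -0.011 for Tnfrsf1a at 1 h, -0.45 for Nfkb1, -0.16 for Nfkbiz and -0.79 for Vcam1 at 4 h, and -0.14 for Nfkb1 at 12 h. Male-called S3-like cells gave -0.070 for Tnfrsf1a at 1 h, -0.43 for Nfkb1, -0.028 for Nfkb2, -0.090 for Nfkbiz and -0.058 for Tnfaip3 at 4 h, and -0.21 for Nfkb1 at 12 h. S1/S2-like cells gave 0.36 for Cxcl1 at 4 h. In the distal class, Nfkbia was at -0.055 at 4 h in male-called cells and at 0.36 at 1 h under the 25% mitochondrial limit. The S100g-led cluster gave 0.027 and -0.14 for Nfkbia at 1 and 4 h, -0.33 and -3.09 for Relb at 4 and 12 h and -1.50 for Birc3 at 12 h. Male-called cells of the Slc12a3-led cluster gave 1.62 for Relb at 1 h and 0.60 for Bcl3 at 12 h, from 1 and 3 UMIs at 0 h.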
